A study of Mus musculus with 13 samples.

Results

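Lung cells of Col1a1-GFP mice taken 30 days after bleomycin were compared with those of sham mice, across the autosomal genes of the transcriptome. Genes entered when they reached 1 RPKM or more in at least 2 of the 13 libraries of the series and lay on an autosome. That left 12397 of the 12938 genes that passed this level, of 43346 genes in the deposited table. The question the groups put is how far the gene expression of collagen-producing lung cells still departs from that of unchallenged lung at this late time. RPKM, the read number of a gene divided by its length and by the size of the library, is the unit of every level given. Levels can therefore be set side by side between genes.

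The day 30 group held 5 libraries and the sham group 2, and 3 libraries taken 14 days after bleomycin are set beside them. All 10 came from lungs of Col1a1-GFP mice aged 8 weeks, which carry a green fluorescent protein driven by a collagen I promoter. They were made as poly(A) libraries from total RNA. The promoter marks many kinds of collagen-producing cell, so a library is a mixture and not 1 cell type. The labels used here do not give the dose or route of bleomycin, the sex of the mice, the sorting gate, the hour of collection, or whether each library came from a separate mouse. The p-values therefore measure only the spread between these libraries, which may be technical. The remaining 3 libraries of the series, taken 14 days after pneumonectomy, entered the filter on levels and the estimate of the spread and are not described.

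Bleomycin breaks DNA and injures the alveolar lining, and the lung answers with inflammation, expansion of fibroblasts and deposition of collagen and elastin. In mice the scar forms over weeks after a single injury and often resolves in part later. Transforming growth factor beta is the central signal of this response. It is secreted in a latent complex bound to matrix, is released by integrins and proteases, and drives matrix genes through SMAD factors, while BMP signals often oppose it.

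The libraries differed in ways that bear on these results. Depth, estimated from the steps between low values, was about 67600000 and 72000000 reads in the sham libraries and 132600000 to 200200000 at day 30, so that depth and treatment cannot be told apart. All 5 day 30 libraries carried Xist at 19.9 to 29.2 RPKM with the Y-linked genes Kdm5d, Ddx3y, Eif2s3y and Uty at 0. Sham replicate 1 had Xist at 15.9 RPKM and also Y-linked genes, with Ddx3y at 2.14 RPKM and Eif2s3y at 0.918 RPKM. This sham library thus held transcripts of both sexes. In sham replicate 2 the levels were 0.0147 RPKM of Xist and 11.4 RPKM of Ddx3y. The 3 day 14 libraries had Xist at 0.0102 to 0.0126 RPKM and Ddx3y at 9.91 to 10.5 RPKM. Sex therefore cannot be told apart from treatment in the comparison with sham, nor from time in any difference given between day 30 and day 14. X- and Y-linked genes were left out. Day 30 replicate 1 stood apart: it was the day 30 library nearest to sham for 592 of the 775 genes called with a change over 2-fold (76.4%). Day 30 replicate 3 held the surfactant genes Sftpc at 970 RPKM and Sftpb at 123 RPKM, against 4.14 to 10.6 and 0.510 to 1.38 in the other day 30 libraries. The defining markers of collagen-producing cells were high in all 7 libraries, with Col1a1 at 437 RPKM or more and Col3a1 at 567 RPKM or more.

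Between day 30 and sham, 3485 of the 12397 genes (28.1%) passed an adjusted p of 0.05 in limma with Benjamini-Hochberg adjustment over all 12938 genes. Of these, 2087 (16.8%) rose and 1398 (11.3%) fell, and with a change over 2-fold 613 (4.94%) rose and 162 (1.31%) fell. The direction of small changes depended on scaling: 2985 rose and 904 fell on the values as deposited, and 1654 rose and 1944 fell after upper quartile scaling. The 2 sham libraries limited the count, with 2199 genes called without sham replicate 1 and 1738 without sham replicate 2. Tested against a change of 1.5-fold, 305 genes (2.46%) rose and 17 (0.137%) fell. The median log2 change over all the genes was 0.03, which is the value to set the medians of the gene groups against. Their counts are to be set against the 28.1% of all genes called, with 16.8% rising and 11.3% falling. All log2 changes are on the scale of log2(RPKM + 0.1) after scaling, which understates the change of low genes. In these bulk libraries fewer cells of a type and less RNA per cell cannot be told apart.

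**Figure D1:**
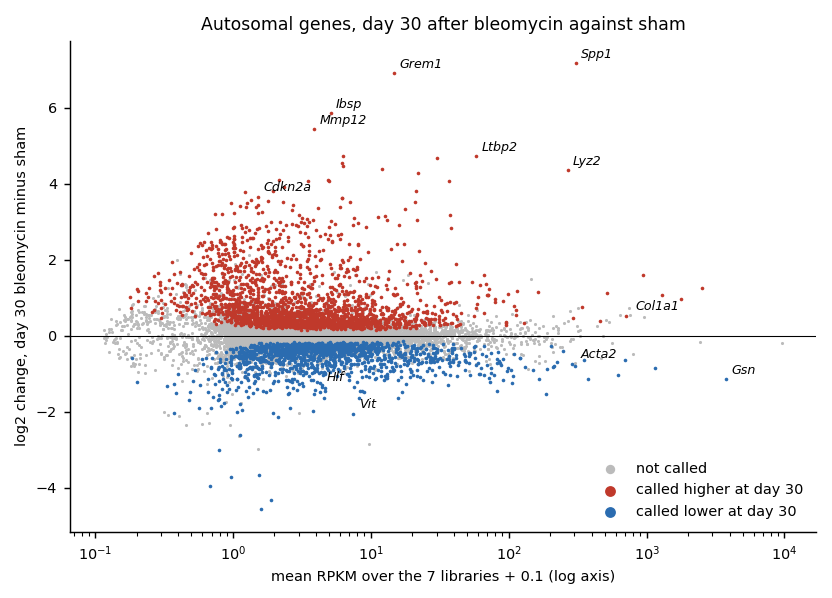
Log2 change between day 30 and sham (vertical axis) of the 12397 autosomal genes against their mean RPKM + 0.1 over the 7 libraries (horizontal axis, log scale), with red points called higher, blue points called lower and grey points not called. More of the called genes lie above 0 (2087) than below (1398), and the highest point is Spp1.

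The largest rise of all the genes was that of Spp1, which encodes osteopontin, a secreted phosphoprotein of matrix and of macrophages. Spp1 (mm10, chromosome 5, 104435118 to 104441050) stood at 2.91 and 2.32 RPKM in the sham libraries and at 290.1, 522, 317, 483 and 523 RPKM in day 30 replicates 1 to 5. Every day 30 library was far above both sham libraries, and the log2 change was 7.18 ± 0.35 (SE, adjusted p = 3.00e-06). Ibsp, its neighbour on chromosome 5 (104299171 to 104311469) and the gene of bone sialoprotein, rose from 0.0143 and 0 RPKM to 2.87, 9.21, 4.43, 9.34 and 9.3 RPKM. Its log2 change was 5.86 ± 0.55 (adjusted p = 8.56e-05), and its day 30 level was lowest in replicate 1. The pair differed against day 14. Spp1 was lower at day 30 than the 1341, 715 and 1297 RPKM of day 14 (log2 difference -1.28 ± 0.31, adjusted p = 0.00365). Ibsp was higher than the 1.08, 1.21 and 2.7 RPKM of day 14 (2.07 ± 0.48, adjusted p = 0.00306). Macrophage markers summed to 39.8 and 50.6 RPKM in sham, 189 to 630 RPKM at day 14 and 278 to 891 RPKM at day 30. Their part in the rise of Spp1 and in its difference from day 14 was not tested.

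Grem1, a secreted antagonist of BMP ligands (chromosome 2, 113746164 to 113758646), rose from 0.0785 and 0.0302 RPKM to 11.7, 21.7, 13, 27.4 and 28 RPKM, a log2 change of 6.91 ± 0.38 (adjusted p = 4.83e-06). Its level at day 14 was 28.7, 21 and 25.5 RPKM, and the difference between the times, -0.28 ± 0.33, did not pass the test (adjusted p = 0.482). Ltbp2, a latent TGF-beta binding protein of elastic microfibrils, rose from 2.67 and 2.46 to 35.6, 81.8, 73.1, 105 and 105 RPKM. For Ltbp2 the log2 change was 4.73 ± 0.33 (adjusted p = 4.14e-05). Tnc, the matrix glycoprotein tenascin C of injured tissue, rose from 1.5 and 1.14 to 19.3, 35.3, 33.3, 66.1 and 54.8 RPKM. Tnc changed by 4.68 ± 0.37 on the log2 scale (adjusted p = 5.92e-05). It was lower at day 30 than at day 14, where it stood at 140.4, 98.5 and 109 RPKM (log2 difference -1.48 ± 0.32, adjusted p = 0.00205). Igfbp2, which binds insulin-like growth factors, rose from 0.20 and 0.181 to 3.43, 8.87, 8.7, 10.7 and 11.2 RPKM. For Igfbp2 the log2 change was 4.72 ± 0.46 (adjusted p = 9.69e-05). Thbs4, a thrombospondin of tendon and injured matrix, rose from 0.306 and 0.207 to 7.62, 6.31, 5.32, 13.8 and 9.95 RPKM. Thbs4 changed by 4.46 ± 0.75 on the log2 scale (adjusted p = 0.00171). Tmem178 rose from 0.227 and 0.279 to 3.21, 7.49, 5.43, 8.15 and 8.64 RPKM. For Tmem178 the log2 change was 4.09 ± 0.33 (adjusted p = 5.92e-05). The 12 largest rises were chosen among genes whose groups do not overlap, so that every day 30 library lies above both sham libraries in them by choice. Over all genes, 35.9% had every day 30 library above both sham libraries in RPKM as deposited, and 26.4% after scaling.

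The other 4 of the 12 largest rises are genes that macrophages are known for. Lyz2, lysozyme, rose from 19 and 12.5 to 149, 373, 593, 326 and 399 RPKM. Lyz2 changed by 4.35 ± 0.52 on the log2 scale (adjusted p = 2.46e-04). The chemokine Ccl6 rose from 1.68 and 0.891 to 10.3, 35, 44.3, 27.9 and 33.4 RPKM. For Ccl6 the log2 change was 4.28 ± 0.56 (adjusted p = 3.96e-04). Mmp12, macrophage elastase (chromosome 9, 7344381 to 7369499), rose from 0.00614 and 0.0192 to 2.41, 5.91, 5.63, 5.46 and 6.98 RPKM. Mmp12 changed by 5.44 ± 0.51 on the log2 scale (adjusted p = 8.35e-05). Atp6v0d2, a proton pump subunit of macrophages and osteoclasts, rose from 0.245 and 0.189 to 3.05, 9.55, 11.4, 8.29 and 9.96 RPKM. For Atp6v0d2 the log2 change was 4.56 ± 0.53 (adjusted p = 2.16e-04). In all 4 the lowest day 30 library was replicate 1. The summed level of the 22 macrophage markers moved with these genes, from 39.8 and 50.6 RPKM in sham to 278 to 891 RPKM at day 30, again lowest in replicate 1, and its part in these rises was not tested. Mmp12, Atp6v0d2 and Ccl6 were also higher at day 30 than at day 14, by 2.10 ± 0.44, 2.26 ± 0.46 and 1.23 ± 0.48 on the log2 scale (adjusted p = 0.00167, 0.00127 and 0.0461). The summed macrophage markers were 189, 630 and 468 RPKM in day 14 replicates 1 to 3, and their part in these differences was not tested. Of the 12 largest rises, 4 were called higher at day 30 than at day 14, 2 lower and 6 neither.

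The 12 largest falls were taken, like the rises, from called genes whose groups do not overlap and whose higher group averages 5 RPKM or more. Vit, the matrix protein vitrin, fell from 11.8 and 19.3 to 7.3, 4.0, 3.79, 2.18 and 3.15 RPKM. Vit changed by -2.05 ± 0.42 on the log2 scale (adjusted p = 0.00477). The change of Vit was -1.70 without sham replicate 2 (adjusted p = 0.0637). Abca6, a lipid transporter of the ABC family, fell from 8.33 and 8.72 to 3.58, 2.98, 2.56, 2.35 and 2.76 RPKM. For Abca6 the log2 change was -1.65 ± 0.20 (adjusted p = 2.98e-04). Ppl, the junction protein periplakin, fell from 14 and 16.3 to 8.54, 5.67, 5.3, 3.37 and 3.74 RPKM. Ppl changed by -1.65 ± 0.31 on the log2 scale (adjusted p = 0.00301). Pcsk6, a proprotein convertase that activates growth factors of the TGF-beta family, fell from 29.5 and 29.1 to 15.5, 8.79, 12.1, 6.73 and 8.62 RPKM. For Pcsk6 the log2 change was -1.64 ± 0.30 (adjusted p = 0.00274). Wnt2b, a WNT ligand of lung mesenchyme, fell from 6.81 and 8.27 to 4.02, 3.17, 2.76, 1.99 and 2.34 RPKM. Wnt2b changed by -1.48 ± 0.30 on the log2 scale (adjusted p = 0.00435). Ptgfr, the receptor of prostaglandin F, fell from 14.1 and 16.1 to 8.34, 5.0, 7.35, 4.26 and 4.75 RPKM. For Ptgfr the log2 change was -1.46 ± 0.29 (adjusted p = 0.00439). That both sham libraries lie above every day 30 library in these genes was part of the choice. Of all genes 11.7% had it in RPKM as deposited, and 18.2% after scaling. In all 6 genes the day 14 level was lower still, for example 0.248, 0.47 and 0.263 RPKM for Abca6 and 0.609, 1.39 and 0.885 RPKM for Pcsk6.

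In 4 further genes the call of the fall rested on sham replicate 2. C7, a terminal complement component, stood at 154 and 595 RPKM in sham and 105, 121, 107, 108 and 110.5 RPKM at day 30 (-1.54 ± 0.39, adjusted p = 0.0138). Its change was -0.56 without sham replicate 2 (adjusted p = 0.163) and -2.52 without sham replicate 1. Angpt4, an angiopoietin ligand, stood at 4.18 and 10.4 RPKM in sham and at 3.08, 1.77, 2.44, 1.97 and 2.71 RPKM at day 30. Angpt4 changed by -1.54 ± 0.34 on the log2 scale (adjusted p = 0.00762). The change of Angpt4 was -0.88 without sham replicate 2 (adjusted p = 0.12). Dpep1, a membrane dipeptidase, stood at 93.5 and 205 RPKM in sham and at 69.3, 54.5, 59.2, 39 and 50.9 RPKM at day 30. For Dpep1 the log2 change was -1.45 ± 0.29 (adjusted p = 0.00465). The change of Dpep1 was -0.88 without that library (adjusted p = 0.0726). Rbp4, the retinol carrier, stood at 23.3 and 35 RPKM in sham and at 22.3, 8.72, 10.4, 8.36 and 8.65 RPKM at day 30. Rbp4 changed by -1.48 ± 0.38 on the log2 scale (adjusted p = 0.0145). The change of Rbp4 was -1.18 without that library (adjusted p = 0.138). Day 30 replicate 1 held Rbp4 close to the lower sham library. The last pair differed from the rest at day 14. Tek, the angiopoietin receptor, fell from 15.5 and 15.9 to 8.76, 6.03, 5.79, 4.54 and 5.31 RPKM. For Tek the log2 change was -1.47 ± 0.24 (adjusted p = 0.00153). It stood at 11.6, 19.4 and 20.4 RPKM at day 14, above day 30 (log2 difference -1.37 ± 0.21, adjusted p = 1.73e-04). Tek is on the endothelial list, whose 22 markers summed to 498 to 921 RPKM at day 14 and 44 to 51.7 RPKM at day 30, and their part was not tested. Ppp1r10, a regulatory subunit of protein phosphatase 1, fell from 11.5 and 18.4 to 7.21, 5.01, 5.33, 4.65 and 6.0 RPKM. Ppp1r10 changed by -1.45 ± 0.20 on the log2 scale (adjusted p = 5.08e-04). Its day 14 level was 4.32, 5.47 and 5.55 RPKM. Of the 12 largest falls, 10 were higher at day 30 than at day 14, 1 was lower and 1 was not called.

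**Figure D2:**
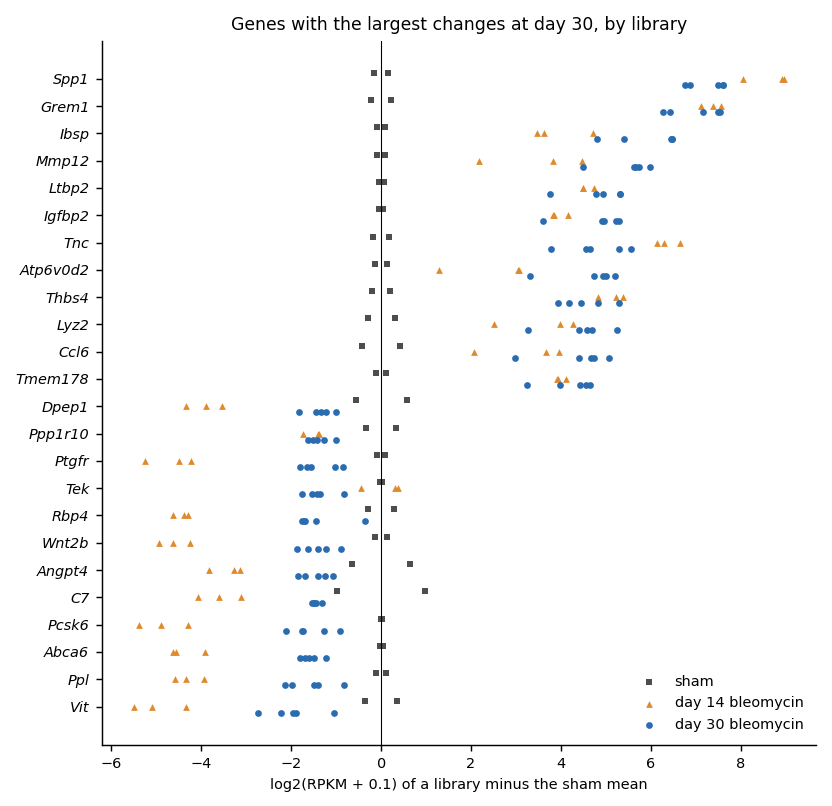
Log2(RPKM + 0.1) of each sham (squares), day 14 (triangles) and day 30 (circles) library minus the sham mean (horizontal axis) for the genes with the 12 largest rises and the 12 largest falls. The genes were chosen so that the day 30 and sham points do not overlap. For most of the falls the day 14 points lie further from sham than the day 30 points.

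Among markers of the fibrotic fibroblast state, the collagen- and matrix-secreting cells described in scarred lung, 9 of the 24 measured rose and 1 fell. Their median log2 change was 0.83, and the share called was 41.7%, beside 28.1% of all genes. The counts were 8 and 1 without sham replicate 1, 9 and 3 without sham replicate 2, and 14 and 2 without day 30 replicates 1 and 3. By library, the median of the group against the sham mean was -0.0092 in day 30 replicate 1 and 0.71 to 1.21 in the other 4 day 30 libraries. Cthrc1, a secreted protein that marks these cells, rose from 4.55 and 2.4 to 10.5, 17.1, 20.6, 26.7 and 26.4 RPKM. For Cthrc1 the log2 change was 2.42 ± 0.37 (adjusted p = 0.00111). Postn, periostin, rose from 18.1 and 14.1 to 28.8, 40.5, 52.1, 56.5 and 55.1 RPKM. Postn changed by 1.41 ± 0.22 on the log2 scale (adjusted p = 0.00116). Runx1, a transcription factor of activated fibroblasts, rose from 0.358 and 0.327 to 1.69, 2.73, 2.44, 3.52 and 3.36 RPKM. For Runx1 the log2 change was 2.57 ± 0.24 (adjusted p = 8.30e-05). Cthrc1 and Runx1 were lower at day 30 than at day 14, with differences of -0.95 ± 0.33 and -1.16 ± 0.21 (adjusted p = 0.0256 and 5.62e-04). The difference of Postn, 0.12 ± 0.19, did not pass (adjusted p = 0.622).

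The genes of the main scar proteins did not pass the test. Col1a1 (chromosome 11, 94936224 to 94953042), whose promoter drives the reporter, stood at 437 and 670 RPKM in sham and 675, 749, 811, 987 and 997 RPKM at day 30, a log2 change of 0.54 ± 0.28 (adjusted p = 0.175). Day 30 replicate 1 was level with the higher sham library, and the change was 0.22 without sham replicate 1 and 0.85 without sham replicate 2. Col1a2 stood at 295 and 447 RPKM in sham and at 386, 423, 459.9, 519 and 518 RPKM at day 30. For Col1a2 the log2 change was 0.25 ± 0.24 (adjusted p = 0.452). The groups overlapped, and the change of Col1a2 was -0.06 without sham replicate 1. Col3a1 stood at 567 and 873 RPKM in sham and at 934, 926, 1146, 1189 and 1071 RPKM at day 30. For Col3a1 the log2 change was 0.49 ± 0.23 (adjusted p = 0.129). Without each sham library in turn the change was 0.17 and 0.81. Fn1, fibronectin, stood at 162 and 209 RPKM in sham and at 192, 288, 297, 391 and 424 RPKM at day 30. For Fn1 the log2 change was 0.65 ± 0.26 (adjusted p = 0.0863). Without day 30 replicate 1, which lay between the sham libraries, the change of Fn1 was 0.82 (adjusted p = 0.0119). In Col1a1, Col1a2 and Col3a1 the sham pair differed widely, and in Fn1 it differed by less.

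**Figure D3:**
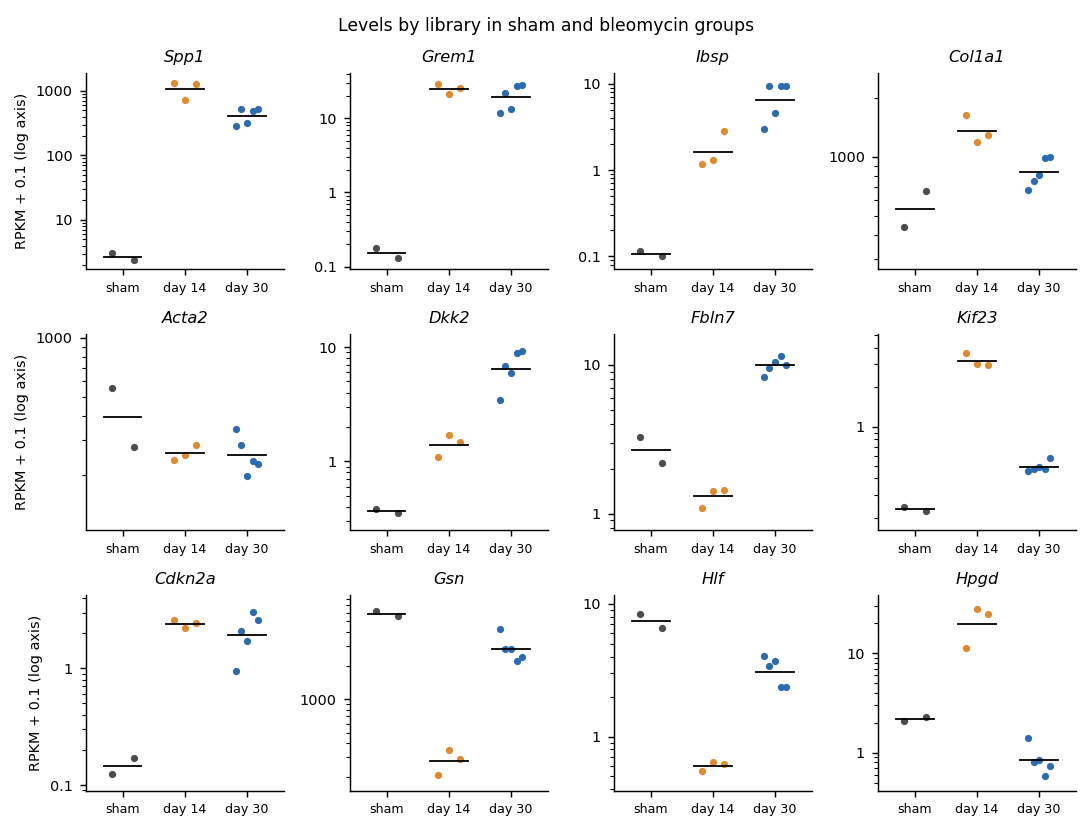
RPKM + 0.1 (log axis) of 12 genes in each sham, day 14 and day 30 library, 1 point a library, with a line at the group's mean on the log scale. The sham and day 30 points of Spp1, Grem1 and Ibsp lie far apart, whereas those of Col1a1 adjoin and those of Acta2 overlap.

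Among fibrillar collagens and their processing, 9 of 33 genes rose and 4 fell (median 0.21), with 4 and 6 without sham replicate 1 and 7 and 1 without sham replicate 2. Col11a1, a minor fibrillar chain of cartilage, rose from 0.0491 and 0.0389 to between 0.821 and 4.78 RPKM (4.09 ± 0.72, adjusted p = 0.00216). Col5a3, a chain of collagen V, rose from 3.95 and 4.79 to between 11.3 and 19.6 RPKM (1.54 ± 0.24, adjusted p = 0.00109). P4ha3, a subunit of prolyl hydroxylase, rose from 0.545 and 0.448 to between 3.29 and 12.6 RPKM (3.63 ± 0.37, adjusted p = 1.17e-04). Loxl4, a lysyl oxidase relative, fell from 6.75 and 7.77 to between 2.15 and 4.04 RPKM (-1.29 ± 0.24, adjusted p = 0.00266). Lox itself, which cross-links collagen and elastin, rose from 15.7 and 19.6 to between 19.8 and 39 RPKM (0.77 ± 0.25, adjusted p = 0.0373). That call was lost when either sham library or any of day 30 replicates 2 to 5 was left out (log2 change 0.61 to 0.93). Lox was lower than at day 14, with a difference of -1.27 ± 0.22 (adjusted p = 3.50e-04).

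Among non-fibrillar collagens, 10 of 22 rose and 2 fell (median 0.50), with 7 and 2 without sham replicate 1 and 7 and 0 without sham replicate 2. Col12a1, which coats collagen fibrils, rose from 1.58 and 1.78 to between 4.2 and 15.2 RPKM (2.38 ± 0.39, adjusted p = 0.00153). Col7a1, the collagen of anchoring fibrils, rose from 0.206 and 0.157 to between 1.21 and 5.77 RPKM (3.43 ± 0.48, adjusted p = 6.21e-04). Col28a1 rose from 0.433 and 0.475 to between 2.91 and 6.36 RPKM (2.99 ± 0.21, adjusted p = 4.14e-05). Col16a1 and Col13a1 rose by less, with log2 changes of 0.89 ± 0.13 and 0.50 ± 0.08 (adjusted p = 6.77e-04 and 0.00142). Col12a1 and Col7a1 were lower than at day 14 (-1.21 ± 0.34 and -1.09 ± 0.42, adjusted p = 0.00926 and 0.041), and for Col28a1, Col16a1 and Col13a1 the difference between the times did not pass.

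Of 20 elastic fibre genes 6 rose and 7 fell, a median of 0.05 that was -0.01 after upper quartile scaling. The counts were 6 and 2 without sham replicate 1 and 5 and 1 without sham replicate 2. Eln, elastin, rose from 343 and 357 to 557, 1120.4, 1330, 1487 and 1441 RPKM. For Eln the log2 change was 1.60 ± 0.33 (adjusted p = 0.00482). Mgp, a matrix inhibitor of calcification, rose from 1249.7 and 1129 to between 2735 and 3469.6 RPKM (1.26 ± 0.16, adjusted p = 3.19e-04). Its levels were even across the day 30 libraries. Fbn2, a fibrillin of developing tissue, rose from 0.0198 and 0.0305 to between 0.58 and 2.22 RPKM (3.40 ± 0.50, adjusted p = 8.80e-04). Fbln7, a fibulin, rose from 3.15 and 2.09 to 8.23, 9.49, 10.3, 11.4 and 9.89 RPKM. Fbln7 changed by 1.81 ± 0.25 on the log2 scale (adjusted p = 5.49e-04). Day 14 had 0.986, 1.33 and 1.34 RPKM, below sham (log2 change -1.20) and below day 30 (difference 3.01 ± 0.22, adjusted p = 4.75e-07). The difference between day 30 and day 14 did not pass for Eln, Mgp or Fbn2.

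Of 23 genes of proteoglycans and hyaluronan, 7 rose and 5 fell (median -0.26), with 6 and 4 without sham replicate 1 and 5 and 2 without sham replicate 2. Fmod, fibromodulin, which organises collagen fibrils, rose from 3.78 and 6.48 to between 29.1 and 63.4 RPKM (3.18 ± 0.30, adjusted p = 8.30e-05). Gpc1, a cell-surface heparan sulphate proteoglycan, rose from 1.47 and 1.4 to between 5.61 and 11.6 RPKM (2.42 ± 0.26, adjusted p = 1.57e-04). Cd44, the hyaluronan receptor, rose from 6.73 and 4.8 to between 13.2 and 16.9 RPKM (1.34 ± 0.17, adjusted p = 3.75e-04). Of 20 basement membrane genes, 5 rose and 6 fell (median -0.33), and 4 and 6 or 4 and 7 did so without sham replicate 1 or 2. The laminin chains Lama4 and Lamc1 fell, from 21.6 and 23.3 to between 14.6 and 15.7 RPKM and from 77.5 and 83.2 to between 48.4 and 53.3 RPKM. The log2 changes were -0.64 ± 0.07 and -0.73 ± 0.08 (adjusted p = 1.30e-04 and 1.89e-04). Nid1, nidogen, which links laminin to collagen IV, fell from 93.6 and 118 to between 56.5 and 68.9 RPKM (-0.85 ± 0.12, adjusted p = 7.14e-04). Lamc3, a minor laminin chain, rose from 2.16 and 2.33 to between 4.17 and 7.57 RPKM (1.28 ± 0.21, adjusted p = 0.00146). It was higher than the 1.89, 2.06 and 2.11 RPKM of day 14.

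Genes of matrix degradation also moved both ways, with 13 of 33 rising and 8 falling (median 0.31). Without sham replicate 1 or 2 the counts were 10 and 4 or 10 and 5. Mmp13 and Mmp10, a collagenase and a stromelysin, rose from 0.0332 and 0.052 to between 0.946 and 2.32 RPKM and from 0.00861 and 0.00808 to between 0.861 and 1.71 RPKM. The log2 changes were 3.56 ± 0.38 and 3.48 ± 0.30 (adjusted p = 1.38e-04 and 5.92e-05). Mmp13 was lower than at day 14 (-1.94 ± 0.33, adjusted p = 3.72e-04) and the difference of Mmp10 did not pass (0.24 ± 0.26, adjusted p = 0.452). Serpine2, an inhibitor of thrombin and plasminogen activators, rose from 13.7 and 12.4 to between 35.2 and 66.1 RPKM (1.90 ± 0.22, adjusted p = 2.02e-04). Ctss, cathepsin S, which is also on the macrophage list, rose from 2.78 and 2.39 to between 24.7 and 70.2 RPKM (4.08 ± 0.47, adjusted p = 2.20e-04). Beside it the other macrophage markers rose as given above, and their part was not tested.

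In the TGF-beta system, 7 of 30 genes of ligands, receptors and repressors rose and 9 fell (median 0.06, or -0.01 after upper quartile scaling). The counts were 6 and 4 without sham replicate 1 and 5 and 5 without sham replicate 2. Tgfb1, the main ligand, rose from 4.13 and 3.9 to 9.29, 13.3, 11.7, 14.7 and 14.2 RPKM (1.53 ± 0.14, adjusted p = 7.31e-05), below the 20.7, 24 and 24.6 RPKM of day 14. Inhbb, a subunit of activin B, rose from 0.386 and 0.278 to between 0.999 and 2.19 RPKM (2.02 ± 0.24, adjusted p = 2.65e-04). Tgfbr3, the co-receptor betaglycan, fell from 30.3 and 32.1 to between 15.8 and 18.8 RPKM (-0.90 ± 0.09, adjusted p = 8.59e-05). Pmepa1, an inducible repressor of the pathway, rose from 25.4 and 22.8 to between 35.1 and 54.7 RPKM (0.85 ± 0.14, adjusted p = 0.00143). Of 25 known target genes 6 rose and 2 fell, with a median of -0.05 that was 0.03 on the values as deposited, and 6 and 1 or 5 and 6 did so without sham replicate 1 or 2. The share of these target genes called, 32%, is near the 28.1% of all genes. Cdkn2b, a cell-cycle inhibitor that TGF-beta induces, rose from 0.266 and 0.579 to between 1.36 and 2.55 RPKM (1.94 ± 0.29, adjusted p = 8.97e-04).

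Of 29 BMP pathway genes 7 rose and 4 fell (median -0.15), with 5 and 2 or 4 and 3 without sham replicate 1 or 2. Beside Grem1, Bmper, an extracellular BMP modulator, rose from 1.89 and 2.93 to between 6.16 and 10.2 RPKM (1.71 ± 0.27, adjusted p = 0.00116). Chrd, the antagonist chordin, fell from 3.18 and 4.02 to between 1.97 and 2.18 RPKM (-0.86 ± 0.13, adjusted p = 8.52e-04). The ligand Bmp5 rose from 9.09 and 10.5 to between 16.1 and 22.2 RPKM (0.83 ± 0.14, adjusted p = 0.00153). The antagonists Grem1 and Chrd thus moved in opposite directions.

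Of 30 WNT pathway genes 7 rose and 5 fell (median 0.02, or -0.03 after upper quartile scaling), with 8 and 6 or 7 and 3 without sham replicate 1 or 2. Dkk2, a secreted WNT modulator, rose from 0.285 and 0.252 to between 3.34 and 9.18 RPKM (4.06 ± 0.59, adjusted p = 7.90e-04). Its level exceeded the 0.987, 1.59 and 1.37 RPKM of day 14 (log2 difference 2.30 ± 0.51, adjusted p = 0.00232). The feedback inhibitors Notum and Nkd2 rose from 0.246 and 0.214 to between 1.6 and 2.74 RPKM and from 1.49 and 1.96 to between 4.82 and 9.96 RPKM. The log2 changes were 2.75 ± 0.32 and 2.00 ± 0.26 (adjusted p = 2.24e-04 and 3.96e-04). Against day 14 they differed in direction: Notum was lower at day 30 (-2.0 ± 0.28, adjusted p = 8.43e-05) and Nkd2 higher (1.39 ± 0.23, adjusted p = 2.57e-04). The transcription factor Tcf7 rose from 0.558 and 0.604 to between 1.56 and 3.62 RPKM (1.89 ± 0.25, adjusted p = 4.59e-04). The ligand Wnt10b fell from 5.88 and 5.68 to between 2.0 and 3.07 RPKM (-1.16 ± 0.19, adjusted p = 0.0017). Of 13 hedgehog pathway genes none rose and 4 fell (median -0.20), a share called of 30.8% that is near the 28.1% of all genes. By limma at an unadjusted p under 0.05, 1 rose and 5 fell. At the adjusted threshold 3 fell without sham replicate 1 and 1 without sham replicate 2. Disp1, which releases hedgehog ligands, fell from 3.36 and 3.23 to between 1.74 and 2.46 RPKM (-0.69 ± 0.12, adjusted p = 0.00175).

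Among 31 genes of FGF, HGF, EGF, PDGF and IGF signalling, 11 rose and 6 fell (median 0.08), with 7 and 6 or 9 and 3 without sham replicate 1 or 2. The EGF receptor ligands Ereg and Areg rose from 0.508 and 0.333 to between 3.36 and 5.75 RPKM and from 0.148 and 0.0232 to between 1.33 and 2.84 RPKM. The log2 changes were 3.08 ± 0.31 and 3.45 ± 0.39 (adjusted p = 1.11e-04 and 1.80e-04). Pdgfa, a ligand of fibroblast PDGF receptors, rose from 3.29 and 2.71 to between 5.03 and 7.7 RPKM (1.04 ± 0.16, adjusted p = 0.00111). Igf2, a growth factor of developing tissue, fell from 3.85 and 5.13 to between 1.27 and 2.19 RPKM (-1.54 ± 0.20, adjusted p = 3.81e-04). For Ereg, Areg and Pdgfa the difference between day 30 and day 14 did not pass the test.

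Of 28 contractile genes 2 rose and 7 fell (median -0.39), a share called of 32.1% that is near the 28.1% of all genes. The calls rested on the sham libraries, since 4 rose and none fell without sham replicate 1, and 1 rose and 13 fell without sham replicate 2. Acta2, smooth muscle actin and the usual marker of myofibroblasts, stood at 556 and 278 RPKM in sham and 341, 284, 196, 234 and 228 RPKM at day 30, with overlapping groups (-0.73 ± 0.26, adjusted p = 0.0556). Its change was -0.23 without sham replicate 1 and -1.22 without sham replicate 2 (adjusted p = 0.0147). Myh11, smooth muscle myosin, fell from 158 and 75 to between 40.2 and 67.7 RPKM (-1.12 ± 0.32, adjusted p = 0.023). The change of Myh11 was -0.59 without sham replicate 1 (adjusted p = 0.271). The summed level of 15 pericyte and smooth muscle markers was 409 RPKM in sham replicate 1, 222 RPKM in sham replicate 2 and 201 to 250 RPKM at day 30, and its part in these values was not tested. Cdh11, a cadherin of activated fibroblasts, rose from 14.4 and 17.3 to between 30.9 and 57.8 RPKM (1.39 ± 0.20, adjusted p = 8.52e-04).

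Adventitial fibroblast genes, which mark the cells around vessels and airways, gave 17 falls and no rise among 27, with a median of -0.79. By limma, 23 fell and 1 rose at an unadjusted p under 0.05. At the adjusted threshold the share called was 63%, beside 28.1% of all genes. The number falling was 5 without sham replicate 1, 3 without sham replicate 2 and 20 without day 30 replicates 1 and 3. Gsn, the actin-severing protein gelsolin and among the highest genes of the sham libraries, fell from 6189 and 5589 to 4280.4, 2805, 2849, 2215 and 2404 RPKM. For Gsn the log2 change was -1.14 ± 0.26 (adjusted p = 0.00888). Its change was -1.07 without sham replicate 1 (adjusted p = 0.0596). Day 14 had 209, 349 and 289 RPKM, so the day 30 level was higher by 3.46 ± 0.23 (adjusted p = 2.66e-07). Pla1a, a phospholipase, fell from 13.9 and 12.5 to between 4.93 and 9.13 RPKM (-1.08 ± 0.22, adjusted p = 0.00454). Pi16, a marker of adventitial progenitor-like fibroblasts, fell from 285 and 299 to 205, 177, 218, 135 and 170.2 RPKM. Pi16 changed by -0.79 ± 0.25 on the log2 scale (adjusted p = 0.0371). That call was lost without sham replicate 1 (-0.84), sham replicate 2 (-0.75) or day 30 replicate 2 (-0.79), 4 (-0.68) or 5 (-0.76). Pi16 stood at 14.4, 30.7 and 19.8 RPKM at day 14, below day 30 (log2 difference 3.21 ± 0.22, adjusted p = 3.60e-07).

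Alveolar fibroblast and lipofibroblast genes moved in both directions, with 8 of 29 rising and 3 falling (median 0.14), and 4 and 3 or 6 and 1 without sham replicate 1 or 2. Plin2, a coat protein of lipid droplets, rose from 4.5 and 4.84 to 7.65, 11.3, 13, 9.83 and 12.5 RPKM. For Plin2 the log2 change was 1.09 ± 0.17 (adjusted p = 0.00118). The summed macrophage markers, at 278, 607, 891, 509 and 633 RPKM in day 30 replicates 1 to 5, stood in the same order as Plin2. Their part in its rise was not tested. Gyg, glycogenin, rose from 8.74 and 9.04 to between 17.2 and 31.2 RPKM (1.39 ± 0.18, adjusted p = 4.59e-04). Inmt, a methyltransferase high in lung mesenchyme, fell from 521 and 656 to between 228 and 402 RPKM (-1.13 ± 0.22, adjusted p = 0.00378). The change of Inmt was -0.96 without sham replicate 2 (adjusted p = 0.0507). Tcf21, the transcription factor of alveolar fibroblasts, fell from 37.2 and 35.8 to between 20.8 and 30 RPKM (-0.63 ± 0.15, adjusted p = 0.0108). The change of Tcf21 was -0.61 and -0.65 without each sham library (adjusted p = 0.0635 and 0.0614). Pdgfra, the PDGF receptor of these cells, and Npnt, the integrin ligand nephronectin, did not pass, with log2 changes of -0.36 ± 0.14 and 0.14 ± 0.11 (adjusted p = 0.069 and 0.374). Of 35 mesenchymal transcription factors 9 rose and 11 fell (median 0.00), with 7 and 5 or 9 and 4 without sham replicate 1 or 2. Runx2, the master factor of bone cells, rose from 0.0905 and 0.148 to 0.619, 1.12, 0.803, 1.38 and 1.25 RPKM. Runx2 changed by 2.27 ± 0.28 on the log2 scale (adjusted p = 2.60e-04). Sox4 rose from 2.45 and 2.34 to between 5.6 and 9.95 RPKM (1.57 ± 0.17, adjusted p = 1.42e-04). Tbx2 rose from 8.74 and 8.44 to between 19.2 and 34.8 RPKM (1.59 ± 0.20, adjusted p = 3.31e-04). Zeb1 fell from 7.26 and 7.73 to between 5.16 and 6.03 RPKM (-0.51 ± 0.06, adjusted p = 2.84e-04).

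Of 28 mitosis genes 18 rose and none fell (median 0.67, with 21 and 0 by limma at an unadjusted p under 0.05). At the adjusted threshold the share called was 64.3%, beside 28.1% of all genes. The number rising was 7 without sham replicate 1, 8 without sham replicate 2 and 15 without day 30 replicates 1 and 3. Kif23, a kinesin of the cleavage furrow, rose from 0.143 and 0.126 to between 0.357 and 0.473 RPKM (1.01 ± 0.14, adjusted p = 6.33e-04). Cenpa, the centromere histone, rose from 0.349 and 0.317 to between 0.546 and 0.966 RPKM (0.90 ± 0.17, adjusted p = 0.00278). The kinase Cdk1 rose from 0.0516 and 0.0928 to between 0.193 and 0.521 RPKM (1.25 ± 0.25, adjusted p = 0.00458). Day 14 levels were 3.56, 2.92 and 2.88 RPKM for Kif23 and 3.97, 3.35 and 3.53 RPKM for Cdk1, which were -2.60 and -3.03 on the log2 scale as day 30 minus day 14 (adjusted p = 5.93e-08 and 4.86e-07). The proliferation marker Mki67 rose from 0.097 and 0.153 to 0.211, 0.316, 0.422, 0.573 and 0.622 RPKM. For Mki67 the log2 change was 1.11 ± 0.28 (adjusted p = 0.0124). The change of Mki67 was 0.93 without sham replicate 1 (adjusted p = 0.101). With a pseudocount of 1 its change was 0.32 and was not called. All these day 30 levels were near or under 1 RPKM, and the macrophage markers rose beside them, to a sum of 278 to 891 RPKM, with a part that was not tested. Of 23 DNA replication genes 1 rose and none fell (median 0.08, with 4 and 1 by limma at an unadjusted p under 0.05). The share of this list called, 4.35%, is under the 28.1% of all genes.

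Targets of p53 and inhibitors tied to senescence rose in 12 of 25 cases and fell in 1 (median 0.35), with 11 and 0 or 6 and 0 without sham replicate 1 or 2. Cdkn2a, which encodes the inhibitors p16INK4a and p19ARF, rose from 0.0253 and 0.0711 to 0.856, 2.0, 1.62, 2.94 and 2.47 RPKM. Cdkn2a changed by 3.66 ± 0.37 on the log2 scale (adjusted p = 1.17e-04). Its day 14 level was 2.48, 2.11 and 2.36 RPKM, and the difference between the times, -0.23 ± 0.32, did not pass (adjusted p = 0.569). The p53 target Cdkn1a, the inhibitor p21, rose from 14 and 11.5 to 21.3, 19.8, 18.9, 19.8 and 21.7 RPKM. For Cdkn1a the log2 change was 0.59 ± 0.12 (adjusted p = 0.00399). The change of Cdkn1a was 0.45 without sham replicate 2 (adjusted p = 0.0621). The apoptosis genes Bax and Pmaip1 and the AKT inhibitor Phlda3 rose by 0.64 ± 0.11, 1.28 ± 0.24 and 0.47 ± 0.09 on the log2 scale (adjusted p = 0.00153, 0.00325 and 0.00278). In contrast to Cdkn2a, all 4 p53 targets were lower than at day 14, with differences of -1.08 ± 0.10 for Cdkn1a, -0.71 ± 0.09 for Bax, -2.40 ± 0.21 for Pmaip1 and -0.88 ± 0.08 for Phlda3 (adjusted p = 3.30e-06, 4.78e-05, 2.22e-06 and 1.92e-06).

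Of 36 inflammatory cytokine and chemokine genes 15 rose and 2 fell (median 0.64), with 10 and 0 or 7 and 1 without sham replicate 1 or 2. Il34, a ligand of the macrophage growth factor receptor CSF1R, rose from 0.99 and 0.632 to between 4.31 and 8.3 RPKM (2.67 ± 0.24, adjusted p = 7.26e-05). Il11, a fibroblast cytokine of the interleukin 6 family, rose from 0.401 and 0.251 to 1.66, 1.51, 1.03, 1.96 and 1.57 RPKM. Il11 changed by 1.87 ± 0.30 on the log2 scale (adjusted p = 0.00143). The chemokine Cxcl14 rose from 11.2 and 8.86 to between 24.8 and 33 RPKM (1.44 ± 0.14, adjusted p = 9.61e-05). The acute-phase protein Saa3 rose from 0.919 and 0.627 to between 5.58 and 7.81 RPKM (2.85 ± 0.30, adjusted p = 1.35e-04). Il11, Cxcl14 and Saa3 were lower than at day 14 (-0.96 ± 0.27, -1.43 ± 0.12 and -2.82 ± 0.26, adjusted p = 0.00861, 1.72e-06 and 3.53e-06). Il34 was higher (0.52 ± 0.21, adjusted p = 0.0471). On the same list Ccl4, Il1b and Ccl3 had log2 changes of 3.51, 3.15 and 2.90 between day 30 and sham. The macrophage and granulocyte markers rose as well, and their part in the counts of this list was not tested. Of 19 complement genes 7 rose and 3 fell (median -0.01, or 0.07 as deposited), with 6 and 3 or 6 and 0 without sham replicate 1 or 2. Cfi, complement factor I, rose from 0.664 and 1.16 to between 3.97 and 8.43 RPKM (2.64 ± 0.28, adjusted p = 1.30e-04). The membrane inhibitor Cd59a rose from 4.66 and 4.94 to between 7.87 and 10.6 RPKM (0.85 ± 0.09, adjusted p = 1.30e-04). C1qa, a macrophage product, rose from 1.34 and 2.27 to between 8.6 and 14.4 RPKM (2.41 ± 0.38, adjusted p = 0.00123). It rose together with the other macrophage markers, whose part was not tested. Interferon-stimulated genes gave 1 rise and 1 fall among 25, and antigen presentation genes 1 rise and no fall among 19 (5 and 1 by limma at an unadjusted p under 0.05), both shares under that of all genes (28.1%). Without sham replicate 1 or 2 the interferon counts were 1 and 3 or 1 and 0, and no antigen presentation gene was called.

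Of 21 genes of cholesterol synthesis 10 rose and none fell (median 0.23, with 11 and 0 by limma at an unadjusted p under 0.05), with 12 and 0 or 4 and 1 without sham replicate 1 or 2. Mvd and Pmvk, enzymes of the mevalonate pathway, rose from 0.866 and 0.576 to between 1.48 and 1.85 RPKM and from 1.45 and 1.22 to between 2.05 and 2.83 RPKM. The log2 changes were 1.07 ± 0.12 and 0.67 ± 0.12 (adjusted p = 2.13e-04 and 0.00242). Of 30 genes of oxidative phosphorylation 14 rose and none fell (median 0.22, with 19 and 0 by limma at an unadjusted p under 0.05), with 8 or 5 rising without sham replicate 1 or 2. Cox5a, a subunit of cytochrome oxidase, rose from 9.84 and 10.1 to between 16.1 and 20.4 RPKM (0.73 ± 0.09, adjusted p = 2.66e-04). Sdhc, of succinate dehydrogenase, rose from 6.32 and 5.78 to between 8.0 and 8.58 RPKM (0.36 ± 0.06, adjusted p = 0.00116). The day 30 libraries all lay above both sham libraries for these 4 genes, as they did for 35.9% of all genes. After scaling that share of all genes was 26.4%. The share called was 47.6% for cholesterol synthesis and 46.7% for oxidative phosphorylation, beside 28.1% of all genes.

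Of 21 glycolysis genes 6 rose and 2 fell (median 0.13), with 5 and 2 or 1 and 2 without sham replicate 1 or 2. Pfkfb4, which makes an activator of glycolysis, rose by 0.63 ± 0.09 (adjusted p = 8.40e-04). Pdk4, which restrains the entry of pyruvate into mitochondria, fell from 4.86 and 6.0 to between 2.03 and 2.48 RPKM (-1.33 ± 0.17, adjusted p = 3.57e-04). Of 24 genes of lipid storage 4 rose and 3 fell (median 0.01, or -0.04 after upper quartile scaling), with 2 and 3 or 3 and 2 without sham replicate 1 or 2. That share, 29.2%, is near the 28.1% of all genes. Fabp5, a fatty acid carrier, rose from 0.477 and 0.359 to between 1.14 and 4.14 RPKM (2.33 ± 0.37, adjusted p = 0.00133). The macrophage markers rose as well, and their part in the rise of Fabp5 was not tested. Dgat2, the last enzyme of triglyceride synthesis, fell from 2.42 and 2.5 to between 0.613 and 1.28 RPKM (-1.40 ± 0.28, adjusted p = 0.00399). Of 30 genes of the secretory pathway and unfolded-protein response 5 rose and 2 fell (median 0.11), with 9 and 1 or 1 and 0 without sham replicate 1 or 2. The share of this list called, 23.3%, stands beside 28.1% of all genes. Asns, asparagine synthetase, rose from 0.384 and 0.264 to between 0.895 and 1.54 RPKM (1.55 ± 0.18, adjusted p = 1.79e-04). Of 30 oxidative stress genes 5 rose and 7 fell (median -0.01, or 0.07 as deposited), with 2 and 2 or 2 and 1 without sham replicate 1 or 2. The peroxiredoxin Prdx1 rose by 0.60 ± 0.10 (adjusted p = 0.00138). The monooxygenase Fmo2 fell from 74.8 and 106 to between 48.8 and 56.8 RPKM (-0.86 ± 0.13, adjusted p = 9.61e-04).

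The circadian clock is a feedback loop. Its activators BMAL1, encoded by Arntl, and CLOCK bind E-boxes and switch on the Per and Cry repressors, Nr1d1 and the PAR bZIP factors Dbp, Tef and Hlf. The PAR bZIP factors act through D-boxes, and NR1D1 in turn represses Arntl. Parts of the promoters of 4 clock genes that changed are shown because they hold these elements. The E-box searched was CACGTG and the D-box TTATGNAA, on both strands and with no overlap between them. The windows are RefSeq promoters of build GRCm38.p6, and the matches stand in capitals. Of all 32851 promoters 7.15% held the E-box and 3.38% the D-box. The 17 clock genes with an entry have 22 promoters, of which 6 (27.3%) and 2 (9.09%) held them.
Ciart, chr3:95882247-95882364, minus strand: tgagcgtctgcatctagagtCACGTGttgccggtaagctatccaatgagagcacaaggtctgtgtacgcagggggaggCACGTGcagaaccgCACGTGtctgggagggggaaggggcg
Tef, chr15:81802526-81802571, plus strand: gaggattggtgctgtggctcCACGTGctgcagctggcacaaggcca
Per3, chr4:151044796-151044890, minus strand: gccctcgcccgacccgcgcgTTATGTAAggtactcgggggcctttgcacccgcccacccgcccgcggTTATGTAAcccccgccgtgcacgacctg
Cry1, chr10:85185089-85185134, minus strand: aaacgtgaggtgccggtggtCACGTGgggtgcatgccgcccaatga

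Of 19 clock genes 3 rose and 10 fell (median -0.51), with 0 and 4 without sham replicate 1 and 2 and 9 without sham replicate 2. The activator Arntl rose from 1.02 and 1.87 to 3.45, 3.71, 2.47, 4.83 and 4.19 RPKM. For Arntl the log2 change was 1.25 ± 0.26 (adjusted p = 0.00547). The change of Arntl was 0.84 without sham replicate 1 (adjusted p = 0.0796). The repressors Per3 and Nr1d1 fell, from 5.67 and 4.14 to 2.87, 2.88, 2.83, 2.11 and 2.37 RPKM and from 42.6 and 41.7 to 32.7, 28.8, 30.9, 24.1 and 27.3 RPKM. The log2 changes were -0.96 ± 0.16 and -0.64 ± 0.12 (adjusted p = 0.00161 and 0.00359). Hlf fell from 8.24 and 6.49 to between 2.24 and 3.94 RPKM (-1.35 ± 0.25, adjusted p = 0.00274). The nuclear receptor Rora had a change of -0.57 ± 0.11 (adjusted p = 0.00349). Ciart, Tef and Cry1 are outside the rule for named genes and were chosen after their values were seen, for their promoters. Ciart, a clock repressor, fell from 0.877 and 0.596 to 0.257, 0.283, 0.369, 0.228 and 0.27 RPKM. Ciart changed by -1.19 ± 0.26 on the log2 scale (adjusted p = 0.00685). Tef fell from 14.9 and 12.6 to 9.04, 8.79, 9.76, 6.1 and 6.85 RPKM. For Tef the log2 change was -0.85 ± 0.20 (adjusted p = 0.0108). Without sham replicate 1 the changes of Ciart and Tef were -0.95 and -0.74 (adjusted p = 0.0782 and 0.0873). Cry1, a repressor that peaks late in the cycle, rose from 0.781 and 0.835 to 1.13, 1.19, 1.23, 1.29 and 1.38 RPKM. Cry1 changed by 0.49 ± 0.11 on the log2 scale (adjusted p = 0.00599). The change of Cry1 was 0.44 without sham replicate 1 (adjusted p = 0.0546). E-box promoters thus stood on both sides. At day 14 Per3, Nr1d1 and Hlf were lower still, at 0.612, 0.558 and 0.586 RPKM for Per3, 6.99, 5.9 and 6.13 RPKM for Nr1d1 and 0.446, 0.548 and 0.517 RPKM for Hlf, with differences of 2.05, 2.26 and 2.43 on the log2 scale as day 30 minus day 14. The share of the clock list called was 68.4%, beside 28.1% of all genes. The hour of collection is not in the labels, so that it cannot be told apart from treatment.

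Of 17 glucocorticoid target genes 1 rose and 6 fell (median -0.49), with 0 and 5 or 1 and 4 without sham replicate 1 or 2. Zbtb16, a transcription factor that glucocorticoids induce strongly, fell from 4.39 and 3.65 to 1.66, 0.986, 0.773, 0.987 and 0.63 RPKM. For Zbtb16 the log2 change was -2.03 ± 0.36 (adjusted p = 0.00216). Its day 14 level was 1.83, 1.34 and 2.53 RPKM. The share of the glucocorticoid list called was 41.2%, beside 28.1% of all genes. Of 19 retinoid genes 5 rose and 4 fell (median 0.00), with 3 and 3 or 1 and 0 without sham replicate 1 or 2. Dhrs3, which returns retinal to retinol, rose from 6.39 and 4.19 to 9.4, 13.6, 12.1, 11 and 14.5 RPKM. Dhrs3 changed by 1.11 ± 0.18 on the log2 scale (adjusted p = 0.00142). Day 14, at 2.81, 3.84 and 3.81 RPKM, lay below sham (log2 change -0.75) and below day 30 (difference 1.86 ± 0.16, adjusted p = 1.63e-06). Of 27 targets of YAP and TAZ 4 rose and 7 fell (median -0.08, or 0.01 as deposited), with 2 and 4 or 1 and 8 without sham replicate 1 or 2. Foxf2, a transcription factor of lung mesenchyme, rose from 2.36 and 2.93 to between 6.62 and 12.1 RPKM (1.74 ± 0.20, adjusted p = 2.24e-04). The receptor kinase Axl fell from 116 and 106 to between 63.1 and 77.2 RPKM (-0.72 ± 0.10, adjusted p = 7.55e-04).

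Among 25 genes of prostaglandin and cyclic nucleotide signalling 4 rose and 7 fell (median -0.01, or 0.07 as deposited), with 3 and 2 or 2 and 4 without sham replicate 1 or 2. Npr3, the clearance receptor of natriuretic peptides, rose from 0.569 and 1.8 to between 4.13 and 14.4 RPKM (2.92 ± 0.45, adjusted p = 0.00111). Ptger2, a prostaglandin E receptor, rose from 0.571 and 0.989 to between 1.67 and 2.56 RPKM (1.22 ± 0.21, adjusted p = 0.00183). Hpgd, which inactivates prostaglandins, fell from 1.97 and 2.19 to 1.29, 0.709, 0.743, 0.478 and 0.629 RPKM. For Hpgd the log2 change was -1.46 ± 0.35 (adjusted p = 0.0112). The change of Hpgd was -1.54 and -1.38 without each sham library (adjusted p = 0.0505 and 0.0814). At day 14 Hpgd stood at 11.2, 27.3 and 24.6 RPKM, above sham and above day 30 (log2 difference -4.46 ± 0.31, adjusted p = 3.83e-07). The 22 endothelial markers moved beside it, from 57 and 59.6 RPKM summed in sham to 498 to 921 RPKM at day 14 and 44 to 51.7 RPKM at day 30. Their part was not tested.

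**Figure D4:**
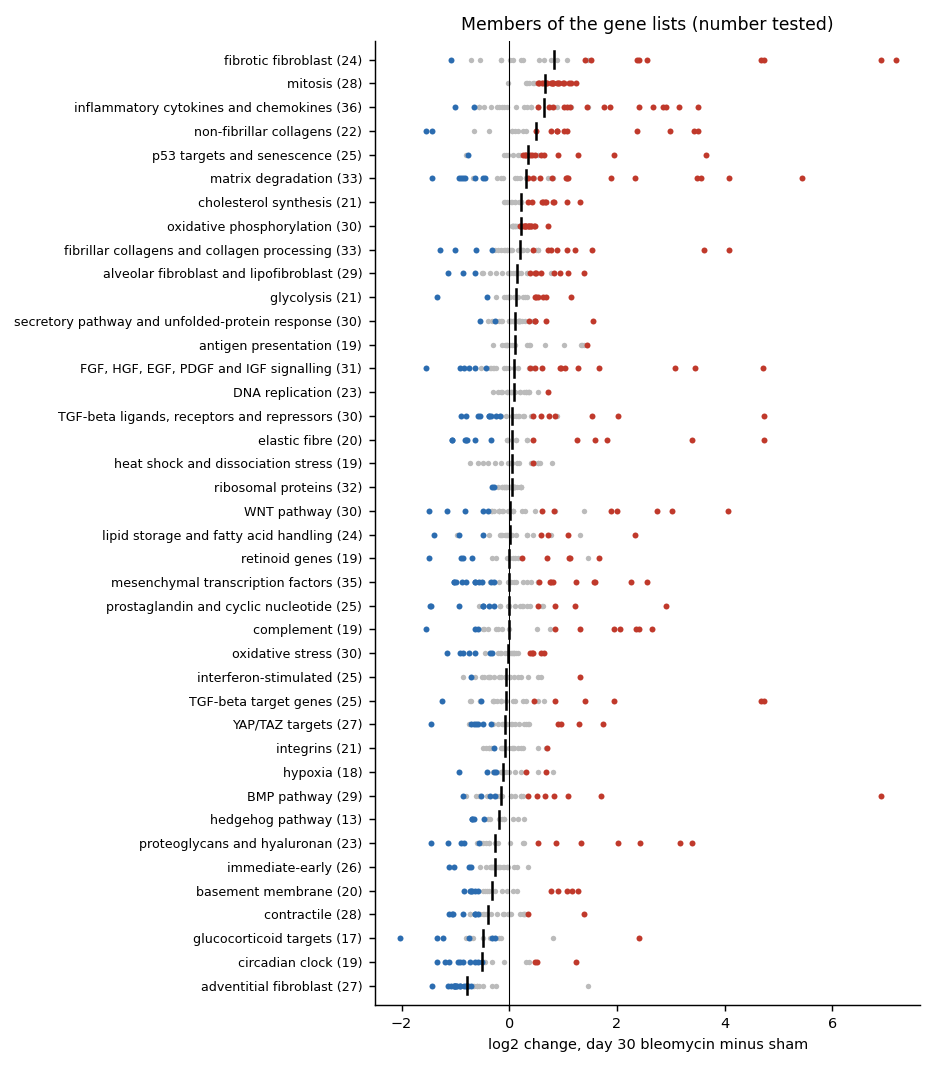
Log2 change between day 30 and sham (horizontal axis) of every tested member of each gene group other than the markers of other cell types, 1 point a gene, red where called higher, blue where called lower and grey where not called, with a bar at the group's median. Among the groups shown the fibrotic fibroblast group has the highest median (0.83) and the adventitial group the lowest (-0.79).

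Markers of cells other than fibroblasts were measured in the same way. The share called was 85.7% of the macrophage and of the granulocyte list, 36.4% of the mesothelial and 9.52% of the endothelial list. Of all genes it was 28.1%. Of 21 macrophage markers 18 rose and none fell (median 2.27, with 19 and 0 by limma at an unadjusted p under 0.05), with 14 and 1 or 14 and 0 without sham replicate 1 or 2. Tyrobp, an adaptor of myeloid receptors, rose from 3.59 and 1.8 to 14, 22.6, 25.4, 20.6 and 23.9 RPKM. Tyrobp changed by 2.90 ± 0.34 on the log2 scale (adjusted p = 2.35e-04). Itgax, an integrin of alveolar macrophages, rose from 0.359 and 0.265 to between 2.1 and 5.21 RPKM (3.19 ± 0.39, adjusted p = 3.05e-04). Of 7 granulocyte markers 6 rose and none fell, the same counts as at an unadjusted p under 0.05 by limma, with 5 or 2 doing so without sham replicate 1 or 2. Their summed level was 15.1 and 2.64 RPKM in sham and 24.4 to 66.9 RPKM at day 30. S100a9, a calgranulin of neutrophils, rose from 7.02 and 0.346 to 40.6, 27.5, 13, 34.6 and 25 RPKM. For S100a9 the log2 change was 3.81 ± 1.00 (adjusted p = 0.0159). The change of S100a9 was 5.80 without sham replicate 1 and 1.81 without sham replicate 2 (adjusted p = 0.236).

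Endothelial markers gave 1 rise and 1 fall among 21, and no rise and 2 falls without either sham library. Eng, a TGF-beta co-receptor of endothelium, stood at 14.7 and 16.5 RPKM in sham and 12.7, 13.2, 16.1, 13.5 and 14.1 RPKM at day 30 (-0.25 ± 0.16, adjusted p = 0.257). Of 11 mesothelial markers 4 rose and none fell (6 and 1 by limma at an unadjusted p under 0.05). Without sham replicate 1 the count rising was 1 and without sham replicate 2 it was 0. Msln, mesothelin, rose from 1.1 and 0.362 to between 1.42 and 6.88 RPKM (2.39 ± 0.61, adjusted p = 0.0145). The change of Msln was 1.71 without sham replicate 2 (adjusted p = 0.163). None of 11 alveolar epithelial markers was called (by limma, 1 rose and 0 fell at an unadjusted p under 0.05), and their summed level was 1322 RPKM in day 30 replicate 3 and 24.7 to 32.5 RPKM in the other day 30 libraries. Sftpc, with a log2 change of 1.5 ± 1.79 (adjusted p = 0.558), gave 0.04 without that library. Sftpb, with 1.60 ± 1.68 (adjusted p = 0.504), gave 0.20 without it. Of 8 airway epithelial markers 2 rose and none fell, a share of 25%. Their summed level was 217 RPKM in day 30 replicate 3 and 34.6 to 48.7 RPKM in the other day 30 libraries. None of 3 lymphocyte and 4 erythroid and platelet markers was called, and by limma 1 rose in each list at an unadjusted p under 0.05. Of 15 pericyte and smooth muscle markers 3 rose and 2 fell (median 0.01), a share called of 33.3% beside 28.1% of all genes. Among them Trpc6, a cation channel, rose from 0.137 and 0.078 to between 0.85 and 2.85 RPKM (3.25 ± 0.35, adjusted p = 1.54e-04). Of the 3 glial and neural markers tested 1 rose and none fell. It was S100b, which rose from 0.259 and 0.365 to between 1.96 and 3.41 RPKM (2.79 ± 0.38, adjusted p = 5.49e-04). No marker of these lists was at 0 in all 7 libraries, and the part of these cells in the results was not tested.

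**Figure D5:**
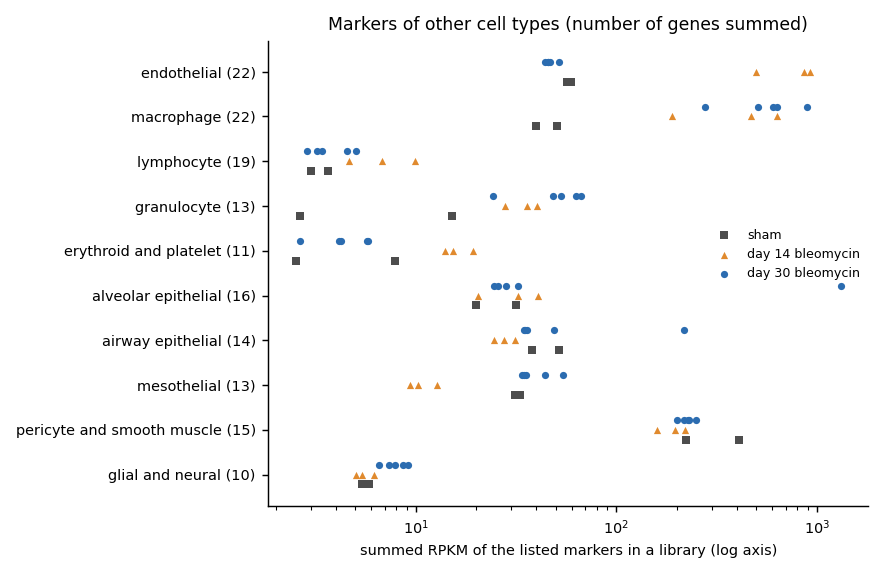
Summed RPKM (horizontal axis, log scale) of the markers of each other cell type in every sham (squares), day 14 (triangles) and day 30 (circles) library. Macrophage sums are 39.8 and 50.6 in sham and 278 to 891 at day 30, endothelial sums are 498 to 921 at day 14 against 44 to 59.6 in the other libraries, and the alveolar epithelial sum of day 30 replicate 3 is 1322.

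Over all genes 7434 (60%) differed between day 30 and day 14, 26.8% higher and 33.1% lower at day 30. Of the 235 genes that the naming rule selected, 83 were higher and 69 lower at day 30 than at day 14. Kif23, Cdk1, Bax, Saa3, Tnc and Spp1 were above sham and below day 14, and Gsn, Pi16, Pcsk6, Abca6 and Nr1d1 were below sham and above day 14. Ibsp, Mmp12, Dkk2, Nkd2 and Lamc3 were higher at day 30 than at either other time, and Tek was lower than at either. Beside Tek, the summed endothelial markers were 498 to 921 RPKM at day 14 against 44 to 51.7 RPKM at day 30. Both comparisons share the day 30 libraries.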

How the data were processed

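Poly(A) RNA of Col1a1-GFP mouse lung cells was sequenced, and the authors deposited 1 table of RPKM per gene and library, with build mm10 per the submitters' processing notes. The aligner, counter and gene annotation are not given in the sources used here. No counts were given, and 0 columns of per-sample values were left unused. RPKM divides by total reads, so a few abundant genes shift all others. The values were therefore rescaled by a trimmed mean of log ratios (30% of ratios and 5% of levels trimmed). Genes with 1 RPKM or more in at least 2 of 13 libraries were tested on log2(RPKM + 0.1). The test was that of limma 3.58.1 under R 4.3.3, with a trended and robust prior, 1 mean per group over all 13 libraries, Benjamini-Hochberg adjustment and a threshold of 0.05. The fit was tested on simulated data. Coordinates come from GENCODE M21 and promoters from RefSeq. Python 3.11.15 with numpy 2.4.6 and pandas 2.3.3 did the rest.

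Genes were named by rule: the 12 largest called changes per direction among genes whose groups do not overlap and whose higher group averages 5 RPKM or more, passing over predicted genes and receptor segments; the called members of each list, at most 5, by p; a panel of 20 genes, of which X-linked Timp1 is no member; and the 3 most abundant members of each list for other cells. The rule gave 235 genes, of which 208 were called. The text describes 143 genes, 4 of them outside the rule, chosen after the values were seen and with a preference for calls that held under the alternatives. The comparison, members and lists were chosen with earlier results of these data known. Counting error of the libraries is included in the spread between them and no interval was computed from reads.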

Additional observations from a re-analysis of the deposited data

Results flagged for a closer look

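In 3 flagged genes the change against sham had opposite directions at the 2 times after bleomycin, and the difference between day 30 and day 14 passed limma's test. The 3 are not a count of every such gene. The RPKM of Lamc3 given above also lay below sham at day 14 and above it at day 30. The difference as day 30 minus day 14 was 3.01 for Fbln7, 1.86 for Dhrs3 and -4.46 for Hpgd on the log2 scale (adjusted p = 4.75e-07, 1.63e-06 and 3.83e-07). Fbln7 and Dhrs3 were above sham at day 30 in all 5 libraries and below sham at day 14 on average, and Hpgd was below sham in all 5 day 30 libraries and above it in all 3 day 14 libraries.

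In 5 flagged genes 1 day 30 library lay far from the other 4 in RPKM by Dixon's criterion. Chance meets that criterion in about 1 of 20 groups, so over many genes some such cases arise by chance. The 5 genes are thus not read as an excess. Rbp4 stood at 22.3 RPKM in day 30 replicate 1, against 8.36 to 10.4 RPKM in the others. Sftpc stood at 970 RPKM and Sftpb at 123 RPKM in day 30 replicate 3, against 4.14 to 10.6 and 0.510 to 1.38 RPKM in the others. Igha stood at 4.14 RPKM and Igj at 2.37 RPKM in day 30 replicate 1, against at most 0.00491 and 0.492 RPKM in the others. The summed alveolar epithelial markers of day 30 replicate 3 were 1322 RPKM.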

How the results depend on the processing

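The number of genes called between day 30 and sham, 3485 in all with 2087 higher and 1398 lower, stayed between 3038 and 3889 under the other pseudocount, the other filters, both other scalings, the compared groups alone and the fit without trend. The number lower was 904 on the values as deposited, and the cause was not tested. Tested against a change of 1.5-fold, 322 were called, 305 higher and 17 lower, and 80 in place of 152 named genes differed from day 14, a stricter question by construction. With 1 library left out, the total was 1738 to 3835, the number higher 1130 to 2248, the number lower 608 to 1587 and the number of named genes differing from day 14 142 to 157. The low ends came without a sham library, where the group holds 1 library that is assumed to vary like the others. Without day 30 replicates 1 and 3, an alternative chosen after seeing the data, 3460 were called. Of the 143 genes described, 132 were called. Of these, 111 were called under every alternative that tested them, other than the 1.5-fold test and the replicate block. The filter of 1 RPKM in all libraries of sham or of day 30 kept only 127 of the 143, and genes it left out were not counted as lost. The sign changed for Col1a2 alone, which gave -0.056 without sham replicate 1 and 0.56 without sham replicate 2.

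Sham and day 30 share the replicate numbers 1 and 2, and the labels of these libraries share a further number whose meaning they do not give. The correlation of the same-numbered deviations from the group means was -0.02 and -0.05. The deviations of 2 sham libraries are equal and opposite, so these values cannot tell whether the numbers pair the libraries. With the replicate number as a block 1043 genes were called, 729 higher and 314 lower, and 117 of the 143 described genes kept their side of the threshold.

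With 2 sham libraries, genes at which that pair differs widely, such as Col1a1, Acta2 and C7, have changes that move with the sham library left out. Low genes have more counting noise in sham than at day 30, since depth was lower there.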

Other observations

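Further lists were measured that the text above does not describe. The share called was 15.4% for immediate-early, 5.26% for heat shock, 6.25% for ribosomal protein and 9.52% for integrin genes. These shares are under the 28.1% of all genes. Immediate-early genes gave no rise and 4 falls among 26 (median -0.27), the same counts as at an unadjusted p under 0.05 by limma, with 2 and 1 without sham replicate 1 and 0 and 5 without sham replicate 2. Heat shock genes gave 1 rise and no fall among 19 (3 and 1 at an unadjusted p under 0.05 by limma), with 1 and 0 or 0 and 2 without sham replicate 1 or 2. Ribosomal protein genes gave no rise and 2 falls among 32, again the same counts at an unadjusted p under 0.05 by limma, and no call without either sham library. Hypoxia genes gave 2 rises and 4 falls among 18 (median -0.12), with 2 and 4 or 1 and 2 without sham replicate 1 or 2. The share called, 33.3%, stands beside 28.1% of all genes. Integrin genes gave 1 rise and 1 fall among 21, none without sham replicate 1, and no rise and 5 falls without sham replicate 2.

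Immunoglobulin genes, the products of plasma cells, held several of the lowest changes of the whole table. The naming rule passed over their segments, and Igha was below the 5 RPKM that it asks for. Igha was chosen here after its values were seen, whereas Igj is on the lymphocyte list and was named by the rule. Igha, the heavy chain of IgA, had a log2 change of -4.34 ± 1.46 (adjusted p = 0.046), from 3.83 and 4.48 RPKM in sham to 4.14, 0, 0.00219, 0.00261 and 0.00491 RPKM at day 30. Igj, the J chain, stood at 1.26 and 1.74 RPKM in sham and 2.37, 0.0303, 0.492, 0.0614 and 0.0145 RPKM at day 30, and its change of -2.34 ± 1.16 did not pass (adjusted p = 0.15). Day 30 replicate 1 had a level of Igha near that of sham and the highest Igj level of all 7 libraries. Without that library the changes were -5.40 and -3.07 (adjusted p = 0.00201 and 0.0257), and without 1 of the other libraries the change of Igha lay between -4.44 and -4.05 and was not called. Segments of immunoglobulin genes share sequence, so that the split of reads among them is uncertain.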
